A study of Mus musculus with 10 samples.

Results

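The thyroid hormone receptors THRA and THRB work through coregulators, the proteins that a nuclear receptor recruits to the genes it binds. The 9 coregulator genes described here were chosen by name, as genes for the corepressor complex and the coactivators of these receptors. The corepressor side holds 5 genes (Ncor1, Hdac3, Tbl1x, Tbl1xr1 and Gps2) and the coactivator side holds 4 (Ncoa1, Ncoa2, Ncoa3 and Med1). All 9 were among the 55401 genes of the count tables, and all 9 were among the 12234 genes that were expressed highly enough to be tested. Stranded mRNA libraries, 1 per mouse, were made from whole liver in 2 genotypes, wild-type (5 mice) and Thrb hep-/- (5 mice). In Thrb hep-/- mice the floxed Thrb gene (Thrb-loxP/loxP) was deleted with Afp-Cre, a Cre recombinase driven by the alpha-fetoprotein promoter, which is active in the fetal liver. The wild-type mice were littermates, both groups were C57Bl6/J in the sample titles, and all mice were fed chow freely under a 12-h light and dark cycle. The strain field spells the strain C56Bl6/J, and the age, sex and collection time of the mice, and whether the wild-type littermates carried Cre or floxed alleles, were not given in the sources used here. The comparison asks whether livers without hepatocyte THRB carry other amounts of coregulator mRNA.

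Thyroid hormone receptors sit on DNA with and without hormone, usually as a heterodimer with RXR. Without hormone the receptor holds the corepressor complex, in which NCOR1 is the platform that touches the receptor, HDAC3 is the histone deacetylase, and TBL1X, TBL1XR1 and GPS2 bind NCOR1 and complete the complex. When hormone binds, the receptor changes shape, the corepressors leave and coactivators of the p160 family (NCOA1, NCOA2 and NCOA3) dock in their place. They bring histone acetyltransferases, and MED1 is the Mediator subunit through which nuclear receptors contact the transcription machinery. In liver, this switch sets the transcription of genes of thyroid hormone activation, lipid synthesis and cholesterol handling. The coregulators are shared with many other nuclear receptors and are made in most cells of the body.

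Values below are normalized CPM, counts scaled to library size (CPM) with TMM factors, unless another scale is named, and values of a group stand in the order of its mice 1 to 5. Total counts ranged from 26477195 to 28590704 per library, so that 3 counts, the level that a count of 0 cannot exclude, correspond to 0.105 to 0.113 CPM, far below each of the 9 genes. The raw counts of the members ran from 269, the lowest for Gps2, to 2857, the highest for Ncor1. The receptor gene itself was the check of the genotype. Thrb was at 33.4, 34.2, 32.5, 33.5 and 32.9 in the wild-type group and at 25.1, 24.9, 28.7, 25.9 and 28.8 in the Thrb hep-/- group. It was lower in every Thrb hep-/- mouse than in every wild-type mouse, with a log2 fold change of -0.32 ± 0.067 (SE, n = 5 and 5, adjusted p = 0.036 by the edgeR quasi-likelihood test with Benjamini-Hochberg adjustment). Counts per gene sum all exons, so they do not show the deleted part of the gene alone. Hepatocyte markers were present in all mice, with a summed level of 79178 to 119129 in wild-type and 94418 to 108054 in Thrb hep-/- livers, and 0 of the 6 passed the test. In whole liver, fewer cells of a type and less RNA per cell cannot be told apart.

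The mRNAs of the 9 coregulators did not pass the test in either direction. The share of all tested genes past an adjusted p of 0.15, the threshold of the study, was 4.08% (499 genes, 185 higher and 314 lower), against 0 of the 9 coregulators. At an unadjusted p below 0.05 the share of all genes was 13.6%, and again 0 of the 9 coregulators were called. The genotypes did not overlap in 3.64% of all genes and in 0 of the 9. With DESeq2 and with limma-voom 0 of the 9 passed as well. In the fit, 4 coregulators were above 0 and 5 below, beside 50.1% above 0 among all genes. The median log2 fold change of the 9 was -0.063, and that of all tested genes was 0.00054. The median size of the change, without its sign, was 0.063 in the coregulators and 0.11 in all genes. The median standard error was also smaller in the coregulators (0.092, and 0.121 in all genes), and a comparison with genes of like level was not made. The 95% intervals of the 9 fold changes lay within 0.762 and 1.22 of the wild-type level, so differences beyond that range are outside the intervals, while smaller ones could not be resolved with 5 mice per genotype.

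**Figure D1:**
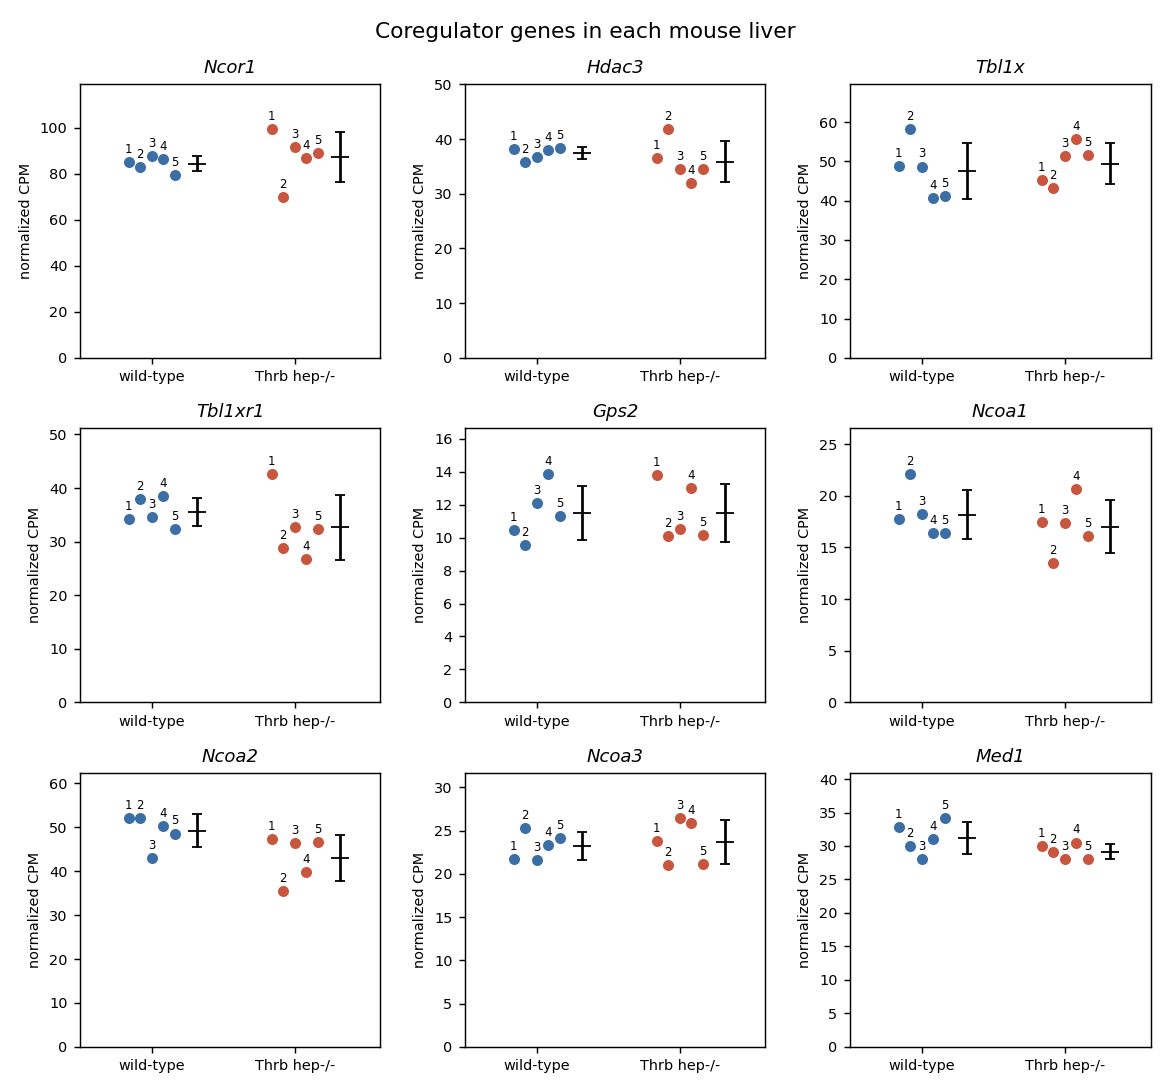
Normalized CPM (vertical axes, each starting at 0) of the 9 coregulator genes in the liver of each mouse, numbered 1 to 5 within its genotype; black marks give the mean and SD of 5 mice. The genotypes overlap in all 9 panels, and Thrb hep-/- mouse 2 is the lowest of its genotype in 6 of them.

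Ncor1 (ENSMUSG00000018501) encodes the platform of the corepressor complex and had the most reads of the 9 genes. Its GRCm38 position is chromosome 11, bases 62316426 to 62458541, minus strand, and 83 of its 12811 exon bases are shared with Ttc19 and Pigl. RefSeq annotates 2 start sites for it in GRCm38.p6, and the windows before both are shown because they differ in base composition. Whether the inner window acts as a promoter was not tested. Counts per gene would pool transcripts from both, and whether both were used in these livers was not tested. Each sequence is the 250 bases before the start site, 5′ to 3′ on the minus strand, with CG dinucleotides in capitals.
Ncor1 upstream start, chr11:62457333-62457582: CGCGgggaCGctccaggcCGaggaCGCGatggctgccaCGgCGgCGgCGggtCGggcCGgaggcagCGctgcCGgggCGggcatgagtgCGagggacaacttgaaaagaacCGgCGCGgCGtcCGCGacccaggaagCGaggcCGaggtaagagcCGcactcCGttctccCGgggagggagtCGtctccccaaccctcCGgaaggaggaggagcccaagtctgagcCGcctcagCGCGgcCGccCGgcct
Ncor1 inner start, chr11:62438516-62438765: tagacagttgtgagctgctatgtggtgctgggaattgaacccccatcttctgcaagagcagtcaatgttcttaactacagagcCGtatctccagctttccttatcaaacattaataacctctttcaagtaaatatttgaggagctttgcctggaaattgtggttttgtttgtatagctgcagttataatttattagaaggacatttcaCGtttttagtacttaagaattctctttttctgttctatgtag
The upstream window held 34 CG dinucleotides and 73.6% G and C, whereas the inner window held 2 and 36.8%. Counts per gene cannot divide the reads between these starts.

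Ncor1 was at 85.2, 83.0, 87.9, 86.5 and 79.3 in the wild-type group and at 99.2, 70.0, 91.7, 86.7 and 89.0 in the Thrb hep-/- group. The 2 extreme values belonged to the same genotype, since Thrb hep-/- mouse 1 was the highest and mouse 2 the lowest of all 10. The means were 84.4 ± 3.37 (SD, n = 5) and 87.3 ± 10.8 (SD, n = 5), and the log2 fold change was 0.050 with a 95% interval from -0.14 to 0.24 (adjusted p = 0.87 with edgeR). Without Thrb hep-/- mouse 1 it was -0.00030, and without mouse 2 it was 0.13.

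Hdac3 (ENSMUSG00000024454), the deacetylase that NCOR1 activates, had the lowest coefficient of variation of the 9 genes in wild-type livers. It was at 38.3, 35.9, 36.7, 38.02 and 38.4 in the wild-type group and at 36.6, 41.8, 34.4, 31.9 and 34.6 in the Thrb hep-/- group. Here the Thrb hep-/- mice spanned a wider range that enclosed the wild-type values, and mouse 2, the lowest for Ncor1, was the highest for Hdac3. The log2 fold change was -0.063 with a 95% interval from -0.23 to 0.10 (adjusted p = 0.78 with edgeR). None of the exon bases of Hdac3 is shared with another annotated gene, which also holds for Tbl1x, Tbl1xr1, Gps2, Ncoa2 and Med1.

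Tbl1x and Tbl1xr1 are close paralogues whose WD40-repeat proteins hold NCOR1 and help to exchange corepressors for coactivators. Tbl1x (ENSMUSG00000025246, chromosome X) was at 48.9, 58.1, 48.7, 40.8 and 41.3 in the wild-type group and at 45.2, 43.2, 51.4, 55.7 and 51.6 in the Thrb hep-/- group. The highest and the lowest Tbl1x value of the 10 mice were both from wild-type livers, and the log2 fold change was 0.056 with a 95% interval from -0.18 to 0.29 (adjusted p = 0.88 with edgeR). Tbl1xr1 (ENSMUSG00000027630, chromosome 3) was at 34.1, 37.9, 34.6, 38.4 and 32.4 in the wild-type group and at 42.7, 28.8, 32.7, 26.7 and 32.4 in the Thrb hep-/- group. Thrb hep-/- mice 2 and 4 were below all wild-type mice and mouse 1 was above them all. The log2 fold change of Tbl1xr1 was -0.12 with a 95% interval from -0.37 to 0.13 (adjusted p = 0.71 with edgeR). Without Thrb hep-/- mouse 1 it was -0.24 (adjusted p = 0.20 with edgeR), the smallest adjusted p that any coregulator reached in the 19 alternative fits. The reads of paralogues were kept apart by counting only reads with a single place in the genome.

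Gps2 (ENSMUSG00000023170, chromosome 11) encodes the small subunit that binds NCOR1 and TBL1X together, and it had the fewest reads. It was at 10.5, 9.58, 12.1, 13.9 and 11.3 in the wild-type group and at 13.8, 10.1, 10.5, 13.0 and 10.1 in the Thrb hep-/- group. The genotypes covered the same range, with means of 11.5 ± 1.64 (SD, n = 5) and 11.5 ± 1.75 (SD, n = 5). Its log2 fold change was 0.0064 with a 95% interval from -0.26 to 0.28 (adjusted p = 0.99 with edgeR). The fitted value changed sign in 4 of the 10 fits that left out a mouse.

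On the coactivator side, Ncoa2 had the fitted difference farthest from 0 among the 9 genes, downward, and it did not pass the test. NCOA2, also called TIF2 or GRIP1, is a p160 coactivator that also acts with the glucocorticoid receptor in liver. Ncoa2 (ENSMUSG00000005886, chromosome 1) was at 52.0, 52.0, 43.1, 50.3 and 48.6 in the wild-type group and at 47.2, 35.5, 46.3, 39.8 and 46.5 in the Thrb hep-/- group. Wild-type mouse 3 was the only wild-type mouse within the range of the Thrb hep-/- mice, and the means were 49.2 ± 3.71 (SD, n = 5) and 43.1 ± 5.21 (SD, n = 5). The log2 fold change was -0.19 ± 0.092 (SE), with a 95% interval from -0.39 to 0.0085 and an adjusted p of 0.39 with edgeR. The exact permutation test of the means over the 10 mice gave p = 0.071 (two-sided, unadjusted, smallest possible 0.0079). By the size of p, Ncoa2 was at rank 1845 of the 12234 genes, and with each mouse left out in turn its fold change was between -0.24 and -0.12 on the log2 scale. Its first place was not kept in every fit, since Tbl1xr1 (-0.24) was farther from 0 than Ncoa2 (-0.23) without Thrb hep-/- mouse 1. Without Thrb hep-/- mouse 2, Ncor1 (0.125) was farther from 0, upward, than Ncoa2 (-0.124). Ncoa1 (-0.18) was farther than Ncoa2 (-0.16) without Thrb hep-/- mouse 4. With the acute-phase component as a covariate, Ncoa2 was at -0.095 and Gps2, at -0.28, was farthest from 0.

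Ncoa1 and Ncoa3 encode the other p160 proteins, SRC-1 and SRC-3. Ncoa1 (ENSMUSG00000020647, chromosome 12) was at 17.8, 22.1, 18.2, 16.4 and 16.4 in the wild-type group and at 17.4, 13.5, 17.3, 20.7 and 16.1 in the Thrb hep-/- group. Ncoa3 (ENSMUSG00000027678, chromosome 2) was at 21.7, 25.3, 21.6, 23.4 and 24.1 in the wild-type group and at 23.8, 21.04, 26.4, 25.9 and 21.2 in the Thrb hep-/- group. Both genes overlapped between the genotypes over most of their range. The log2 fold change was -0.095 for Ncoa1 (95% interval from -0.35 to 0.16, adjusted p = 0.79 with edgeR). For Ncoa3 it was 0.028 (95% interval from -0.16 to 0.22, adjusted p = 0.93 with edgeR). Overlap with genes on the opposite strand was small, with 68 exon bases of Ncoa1 shared with 4921501I09Rik and 154 of Ncoa3 with Sulf2.

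Med1 (ENSMUSG00000018160, chromosome 11) was at 32.8, 29.9, 28.1, 31.1 and 34.1 in the wild-type group and at 29.9, 29.1, 28.1, 30.5 and 28.0 in the Thrb hep-/- group. No Thrb hep-/- mouse was above 30.5, and 3 wild-type mice were. The log2 fold change was -0.099 with the narrowest interval of the 9, from -0.25 to 0.052 (adjusted p = 0.58 with edgeR). For the 9 genes together, the biological coefficient of variation, the replicate spread that edgeR estimates beyond counting noise, was 9.57% for Med1 at the lowest and 14.5% for Gps2 at the highest, and 8 of the 9 were below the median of all tested genes, 14.1%. That median covers genes of all tested levels, and genes of like level were not compared.

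**Figure D2:**
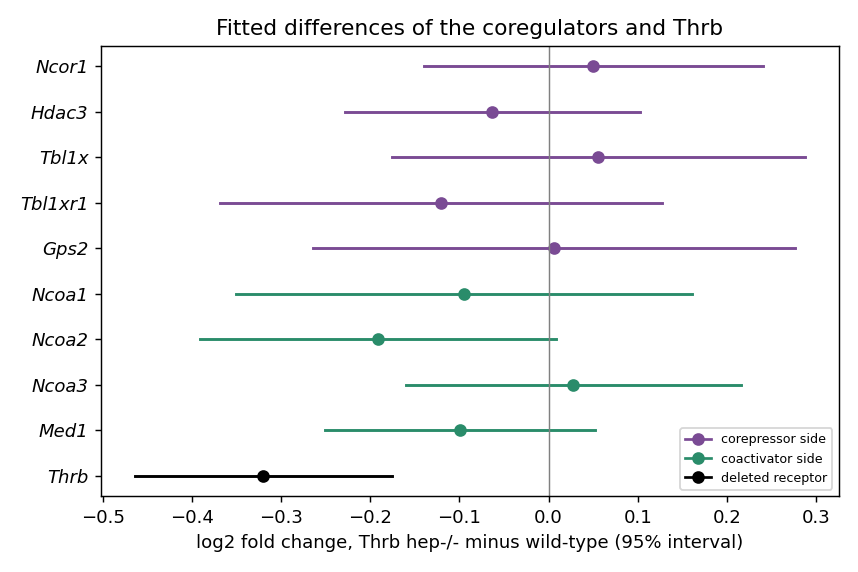
Fitted log2 fold change (horizontal axis, Thrb hep-/- minus wild-type) of the 9 coregulator genes and of Thrb, with 95% intervals from the edgeR fit of 5 and 5 mice. The intervals of the 9 coregulators include 0, that of Ncoa2 ending at 0.0085, and the interval of Thrb lies below 0.

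To compare levels between genes, counts were divided by length as RPKM, reads per kilobase of merged exons and scaled to library size. In wild-type livers the order was Hdac3 (9.24 ± 0.272, SD, n = 5), Gps2 (7.15 ± 1.02), Tbl1x (6.74 ± 1.005), Ncor1 (6.59 ± 0.263), Tbl1xr1 (3.99 ± 0.292), Med1 (3.57 ± 0.271), Ncoa2 (3.15 ± 0.237), Ncoa3 (2.94 ± 0.201) and Ncoa1 (2.12 ± 0.275). Hdac3 was above its neighbour Gps2 in 9 of 10 mice. Within this order Gps2, Tbl1x and Ncor1 were not separated, since Gps2 was above Tbl1x in 6 of 10 mice and Tbl1x above Ncor1 in 7. Tbl1xr1 was above its neighbour Med1 in 7 of 10 mice. Ncoa2 was above Ncoa3 in 5 of 5 wild-type but 2 of 5 Thrb hep-/- mice (RPKM of 2.75 ± 0.333 and 2.996 ± 0.319, SD, n = 5, in the latter), a difference that was not tested. That contrast was seen with merged exon length only. With the length of the longest principal transcript, Ncoa2 was above Ncoa3 in all 10 mice. Ncor1 was above Tbl1xr1, Med1 above Ncoa2, and Ncoa3 above Ncoa1, in all 10 mice. Ncoa1 was thus the lowest of the 9 genes per kilobase of merged exons in every mouse.

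The summed RPKM of the 5 corepressor genes was 33.7 ± 0.999 (SD, n = 5) in wild-type and 33.5 ± 1.90 in Thrb hep-/- livers, and that of the 4 coactivator genes was 11.8 ± 0.621 and 11.1 ± 0.783. The ratio of these sums was 2.69 to 3.16 in wild-type mice and 2.87 to 3.20 in Thrb hep-/- mice, so the genotypes overlapped. In 7 of 10 mice the lowest corepressor gene was above the highest coactivator gene. That order depended on the length used. Ncoa2 has 15642 bases of merged exons but 4897 in its longest principal transcript, and with principal transcript lengths its wild-type level was 10.05 ± 0.758 (SD, n = 5), second after Hdac3 at 18.4 ± 0.542. With those lengths the separation of corepressors and coactivators was found in 0 of 10 mice, and the ratio of the sums was 2.39 ± 0.173 in wild-type and 2.58 ± 0.158 in Thrb hep-/- livers. The sums compare mRNA amounts only, with 5 genes on one side and 4 on the other.

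**Figure D3:**
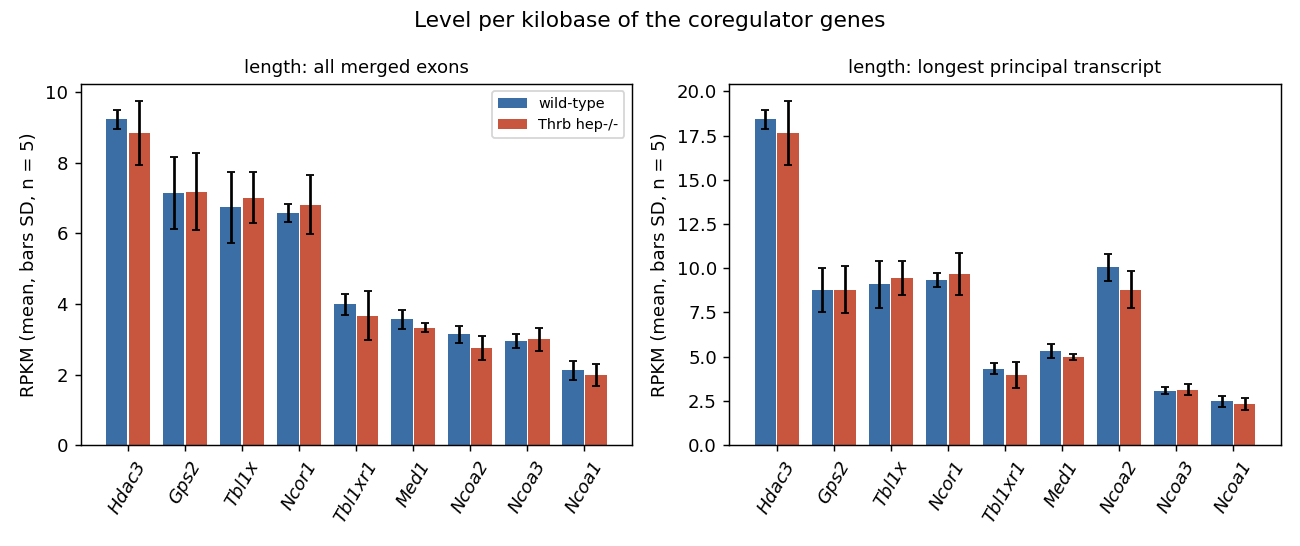
RPKM (vertical axes, from 0) of the 9 coregulator genes as mean and SD of 5 wild-type and 5 Thrb hep-/- mice, with merged exon length on the left and the longest principal transcript on the right, in the order of the left panel. Ncoa2 is seventh on the left (3.15 in wild-type) and second on the right (10.05), while Hdac3 is highest and Ncoa1 lowest in both panels.

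Mice of a genotype differed in how many of the 9 genes they were high or low. Thrb hep-/- mouse 2 was the lowest of its genotype in 6 of the 9 genes and below the genotype mean in 8, with Hdac3 as the exception at 0.23 above the mean on the log2 scale. In mean log2 CPM it was also the lowest for other corepressors, other coactivators, other Mediator genes, receptors with RXR partners, and NCOR1 partner factors. It was the highest for acute-phase and clock genes and for hepatocyte, Kupffer cell and leukocyte, endothelial and cholangiocyte markers. The share over all tested genes was not counted. Thrb hep-/- mouse 1 was above the genotype mean in 8 of the 9 genes and the highest in 4, with Tbl1xr1 farthest at 0.40 above the mean on the log2 scale. Thrb hep-/- mouse 4 and wild-type mouse 2 were each the highest of their genotype in 3 genes and the lowest in 2. Leaving out Thrb hep-/- mouse 2 moved the median log2 fold change of the 5 corepressor genes from 0.0064 to 0.056, and leaving out mouse 1 moved it to -0.067. The library totals of mice 1 and 2, 28539229 and 27779196, were within the range of the other libraries.

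**Figure D4:**
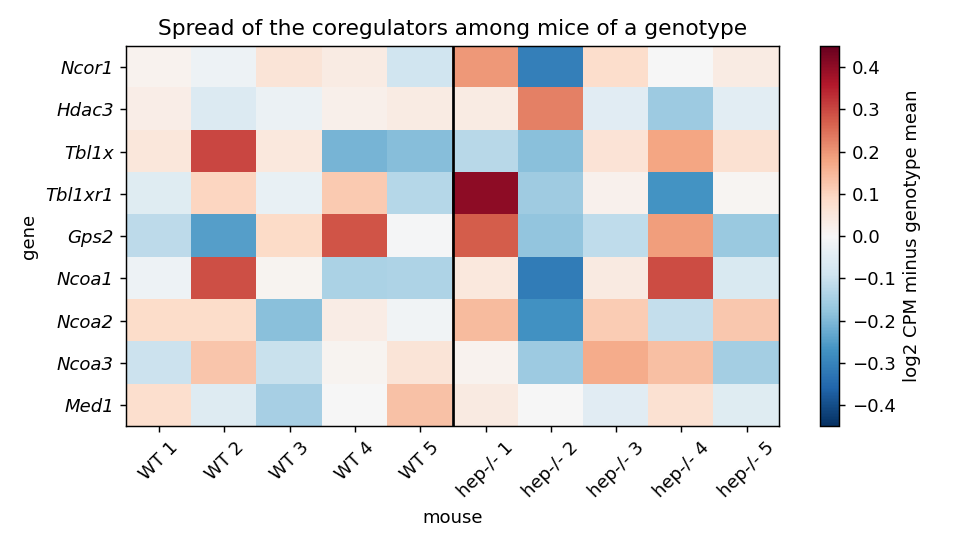
Difference of each mouse from the mean of its genotype in log2 CPM (colour, red above and blue below) for the 9 coregulator genes (rows) in 10 mice (columns; WT, wild-type; hep-/-, Thrb hep-/-). The column of Thrb hep-/- mouse 2 is below its genotype mean in 8 rows and that of mouse 1 above it in 8.

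Over the 10 mice, with the genotype mean of each gene removed, the 36 pairs among the 9 genes were compared, and 23 had a positive Pearson correlation (median r = 0.13). Tbl1x and Ncoa1 varied together (r = 0.85, permutation p = 0.0022, adjusted over the 36 pairs 0.039; Spearman rho = 0.75, permutation p = 0.015, adjusted 0.26). Without the 2 mice farthest from the median of Tbl1x, r was 0.77. Hdac3 and Tbl1x, which belong to the same complex, varied in opposite directions (r = -0.72, permutation p = 0.0011, adjusted 0.039; rho = -0.82, permutation p = 0.0053, adjusted 0.19). Without the 2 mice farthest from the median of Hdac3, r was -0.80. Both pairs passed the correction with r and not with rho. Hdac3 and Ncoa1 also ran against each other (r = -0.84, permutation p = 0.0052, adjusted 0.063; rho = -0.72, permutation p = 0.036, adjusted 0.43), and r was -0.58 without the 2 farthest mice. Ncor1 and its partners did not pass: for Ncor1 and Tbl1xr1 r was 0.65 (permutation p = 0.19, adjusted 0.76; rho = 0.67, permutation p = 0.060, adjusted 0.46) and 0.35 without the 2 farthest mice. The sign differed among the partners, with r of -0.60 for Hdac3 (rho = -0.20), 0.49 for Gps2 (rho = 0.55) and 0.23 for Tbl1x (rho = -0.018). The genes of a library share its scaling and cell composition, whose part in these correlations was not tested.

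As a description, the tested genes whose pattern over the 10 mice was most like each coregulator, by Pearson r with genotype means removed, were named with members left out of the search. For Ncor1 they were Mroh1 (r = 0.97) and Cpeb4 (r = 0.97), for Hdac3 Nipsnap1 (r = 0.98) and Prodh2 (r = 0.95), for Tbl1x Tpp1 (r = 0.95) and Tgfa (r = 0.94), and for Tbl1xr1 Mn1 (r = 0.94) and Phldb2 (r = 0.93). For Gps2 they were Washc1 (r = 0.93) and Aatf (r = 0.92), and for Ncoa1 Dsp (r = 0.99) and Tmem98 (r = 0.96). For Ncoa2 they were Nr2c1 (r = 0.95) and Kif21a (r = 0.93), for Ncoa3 B4galt1 (r = 0.97) and Tgm1 (r = 0.95), and for Med1 Cabyr (r = 0.93) and Bhlhe40 (r = 0.92). Each is the highest r of all other tested genes over 10 mice, and the names carry no test.

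Among the other genes of the same machinery 1 passed the test, a Mediator gene. Of 20 other corepressor genes (deacetylases and the SIN3, CtBP and CoREST complexes among them), 17 were tested and 0 passed an adjusted p of 0.15 with edgeR, 1 had an unadjusted p below 0.05, and 1 passed with DESeq2. That gene was Rbbp4, a histone-binding subunit of deacetylase complexes, at 103, 120, 113, 99.8 and 90.0 in the wild-type group and at 110, 117, 130, 156 and 138 in the Thrb hep-/- group. Its log2 fold change was 0.31 ± 0.11 (SE, n = 5 and 5), with an adjusted p of 0.22 with edgeR and 0.13 with DESeq2. Of its exon bases 18.05% are shared with Sync and Gm26722, so counts there were dropped as ambiguous. The class II deacetylase Hdac7 was next (0.28, adjusted p = 0.39 with edgeR), and Hdac4 (-0.20) and Hdac1 (-0.11) were the lowest, the latter at 20.9 ± 2.43 (SD, n = 5) and 19.3 ± 1.16. Coro2a, Hr and Ctbp2 were too low to be tested. The median log2 fold change of the 17 was 0.039.

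Of 21 other coactivator genes (histone acetyltransferases and methyltransferases, the PGC-1 family and SWI/SNF subunits among them), 20 were tested, 15 were below 0 in the fit, and 0 passed with edgeR or with DESeq2, with 0 at an unadjusted p below 0.05. The extremes were Pprc1 (-0.25) and Ppargc1a (-0.15) at the low end and Ppargc1b (0.26) and Trip4 (0.099) at the high end on the log2 scale. Ppargc1a encodes PGC-1 alpha, which drives hepatic gluconeogenesis genes in fasting, and its levels ran from 6.40 to 9.13 in wild-type and from 3.91 to 9.15 in Thrb hep-/- mice, fully overlapping. Ncoa7 was too low to be tested. The median of the 20 was -0.047.

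All 32 other Mediator genes were tested, and 1 of them, Med16, fell. Med16 encodes a tail subunit of the complex to which MED1 belongs. It was at 27.4, 30.3, 25.3, 30.5 and 29.2 in the wild-type group and at 23.8, 19.7, 19.0, 19.1 and 23.1 in the Thrb hep-/- group. The groups did not overlap, as in 2 of the 32 other Mediator genes and 3.64% of all genes. For any such gene a two-sided exact permutation of the genotypes gives the smallest possible p, 0.0079 (unadjusted). The log2 fold change of Med16 was -0.44 ± 0.089 (SE, n = 5 and 5), with a 95% interval from -0.64 to -0.25 (adjusted p = 0.030 with edgeR). Its exons overlap no other annotated gene. In the fits that left out a mouse, the log2 fold change of Med16 stayed between -0.50 and -0.41 and the call held in all 10, whereas it was -0.23 and did not pass with the acute-phase component as a covariate (adjusted p = 0.9997 with edgeR). This 1 call among 32 genes stands beside 4.08% of all genes called.

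The other Mediator genes lay close to 0, with 22 of the 32 below 0 in the fit and a median log2 fold change of -0.066. Med31 was the next lowest (-0.21) and Med22 (0.16) and Med18 (0.13) were the highest, and none of these passed (adjusted p = 0.57, 0.59 and 0.84 with edgeR). Cdk8, the kinase of the Mediator, was named after its values were seen, as the other Mediator gene whose genotypes did not overlap. It ran from 32.4 to 36.2 in wild-type and from 36.6 to 37.4 in Thrb hep-/- mice, and its log2 fold change was 0.11 (adjusted p = 0.46 with edgeR).

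**Figure D5:**
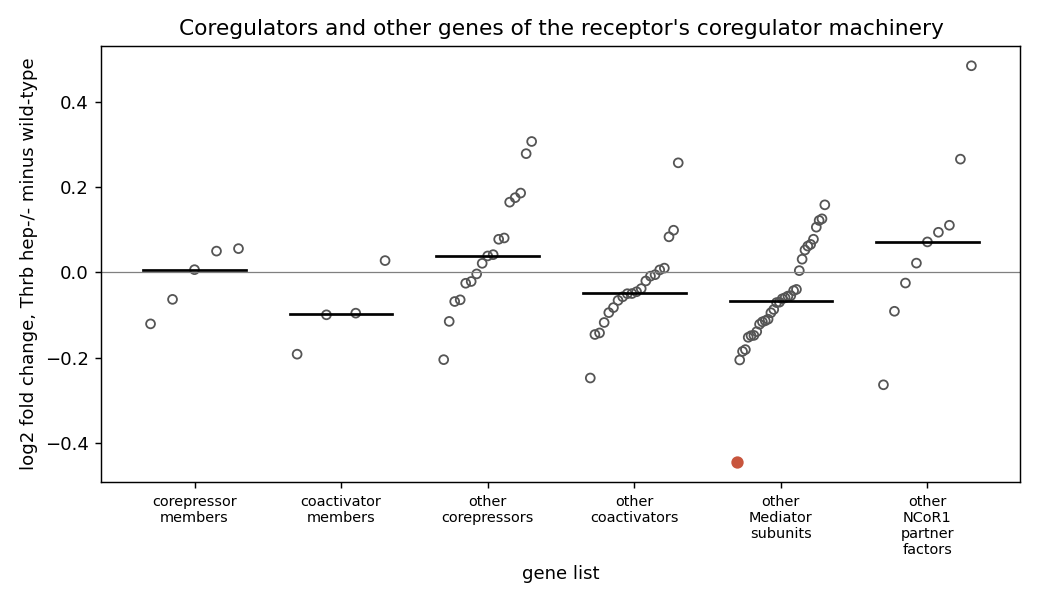
Fitted log2 fold change (vertical axis, Thrb hep-/- minus wild-type) of each tested gene in 6 lists (horizontal axis), with the median of a list as a bar; the filled point passed an adjusted p of 0.15 in edgeR. Of all points 1 is filled, Med16 at -0.44, and the list medians lie between -0.097 for the coactivator members and 0.071 for the partner factors.

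The receptors that share these coregulators were compared too. Of 10 genes for other factors that use NCOR1, 9 were tested (Rarb was too low) and 0 passed with edgeR or with DESeq2, with 0 at an unadjusted p below 0.05. The retinoic acid receptor genes Rarg (-0.26) and Rara (-0.091) were the lowest, and Bcl6 (0.48), a transcriptional repressor, and Nr1d1 (0.27), the heme-binding clock repressor REV-ERB alpha, were the highest on the log2 scale. Bcl6 ran from 8.01 to 37.3 in wild-type and from 8.89 to 49.5 in Thrb hep-/- livers. Among the receptors and their RXR partners only Thrb passed. Thra, the other thyroid hormone receptor gene, was at 9.73 ± 0.885 (SD, n = 5) and 11.0 ± 2.06 (log2 fold change 0.18, 95% interval from -0.10 to 0.45, adjusted p = 0.60 with edgeR). Rxra (0.066), Rxrb (0.13) and Rxrg (-0.21) had adjusted p of 0.83, 0.46 and 0.64 with edgeR.

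Genes that thyroid hormone is known to control are given beside the coregulators. Of 10 such genes 9 were tested, and 2 passed. Dio1, the deiodinase that activates thyroxine in liver, fell from 166 ± 25.5 to 20.3 ± 5.06 (SD, n = 5), with a difference of -3.03 on the log2 scale (adjusted p = 1.3e-05 with edgeR). Me1, the malic enzyme that supplies NADPH for lipid synthesis, rose from 206 ± 48.5 to 355 ± 76.2 (log2 fold change 0.79, adjusted p = 0.065 with edgeR), although the genotypes overlapped. Thrsp, a lipogenic gene, was at -1.28 on the log2 scale (adjusted p = 0.30 with edgeR), with wild-type mouse 5 at 1900 and the others of that genotype at 381 to 551, and Gpd2 was at 0.18 on the log2 scale, the next highest after Me1.

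Acute-phase genes differed with the genotype, and their part in the coregulator values was not tested beyond the fit with a covariate. Of 23 tested acute-phase genes, which the liver makes in inflammation, 15 fell, with a mean log2 CPM of 9.62 ± 0.600 (SD, n = 5) in wild-type and 8.09 ± 0.456 in Thrb hep-/- livers and a summed level of 39023 to 89482.5 and of 26224 to 43334. The leading component of these genes correlated with genotype (absolute r = 0.85, a description), so the component and the genotype can be told apart only in part, and 10 genes passed in place of 499 with it as a covariate. In that fit 0 of the 9 coregulators passed, and Ncor1 (-0.096), Hdac3 (0.089), Tbl1xr1 (0.015), Gps2 (-0.28) and Ncoa3 (-0.0095) had the opposite sign. All 6 tested Kupffer cell and leukocyte markers were below 0 in the fit and 0 passed (summed level 55.8 to 171 in wild-type and 61.0 to 123 in Thrb hep-/- livers). All 6 stellate cell markers were above 0 and 1 passed (82.0 to 125 and 112 to 134). None of the 5 endothelial, 3 cholangiocyte and 15 clock genes tested passed. An unadjusted p below 0.05 with edgeR was found in 4 of the 6 Kupffer cell and leukocyte markers and 2 of the 6 stellate cell markers. It was also found in 2 of the 5 endothelial, 2 of the 3 cholangiocyte, 1 of the 6 hepatocyte and 1 of the 15 clock genes. The share of all tested genes was 13.6%. No marker of these lists was at 0 in all mice.

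The promoters of the coregulators were searched for the receptor's DNA hexamer. THRB with RXR binds a pair of AGGTCA hexamers in the same direction with 4 bases between them. Windows before the RefSeq start sites of 6 of the 9 genes were searched, 7 in all because Ncor1 has 2 (shown above). No window was given for Hdac3, Ncoa2 and Ncoa3. In the 250 bases before the start site, 0 of the 7 windows held AGGTCA on either strand, where 14.0% of 32851 promoters did, and the pair was in 5 promoters (0.0152%). The windows were between 36.8% and 85.6% G and C, the highest being Ncoa1 with 40 CG dinucleotides. Thrb itself had 1 hexamer in 1 of its 2 windows, and Dio1, Me1 and Med16 had none. An absent match says only that these letters were not in the window.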

How the data were processed

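Livers of 5 wild-type and 5 Thrb hep-/- mice were grouped by the genotype in the sample titles. The authors mapped reads on mm10 with HISAT2 2.2.1 and counted them with HTSeq-count 0.9.1 (Ensembl release 102, union mode, minimum alignment quality 10, non-stranded), and the deposited counts are raw. Multi-mapping and ambiguous reads were left out by the authors. The authors' table of their edgeR comparison (fold changes and p-values) was not used. Counts were analysed in R 4.3.3 with edgeR 4.0.16: a minimum of 1 CPM in 5 libraries or more, TMM, robust quasi-likelihood test, Benjamini-Hochberg adjustment over all tested genes at 0.15. Alternatives were DESeq2 1.42.0, limma-voom (limma 3.58.1), other scalings, no filter, no robust settings, a replicate block, acute-phase or clock components as covariates, and leaving out each mouse. The fit was tested on simulated data. Intervals of 95% come from the fit, log2 CPM used a prior count of 2, and correlations used exact permutation within genotypes. Same-numbered mice did not deviate together (correlation -0.20 to 0.0091), so numbers were not taken as pairs. Coordinates and lengths come from GENCODE M21 on GRCm38. Named genes are the 9, the receptors and RXR partners, the genes past the threshold and the 2 highest and 2 lowest in the lists of other corepressors, other coactivators, other Mediator genes, NCOR1 partner factors and thyroid hormone targets, and the 2 genes most like each coregulator. Cdk8 was added after its values were seen. The 9 genes and the lists were chosen with earlier results of these data known. The p-values and intervals rest on the spread between mice.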

Additional observations from a re-analysis of the deposited data

Results flagged for a closer look

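Samples far from the others of their genotype were looked for in the 34 genes named by the rule, in 68 groups of 5 mice. The search found 9, where independent groups of genes not picked by their values would give about 3.4. Some of the 34 genes were picked by fold change and genes of a library share its mouse, so no excess can be read from these counts. None was a value of the 9 coregulators. In wild-type livers, Bcl6 was at 37.3 normalized CPM in mouse 3 (8.01 to 11.4 in the other mice), and Hdac7 was at 7.68 in the same mouse (6.03 to 6.13 in the others). Hdac1 was at 25.2 in wild-type mouse 2 (19.6 to 19.9 in the others). Wild-type mouse 5 was far from the others for Nr1d1 at 36.9 (92.8 to 106), for Rxra at 684 (763 to 784) and for Thrsp at 1900 (381 to 551). Among Thrb hep-/- livers, mouse 1 was far above the others for Hdac7 at 10.4 (6.90 to 7.46) and for Rara at 35.2 (22.9 to 26.5), and mouse 2 was far below them for Gpd2 at 31.9 (47.7 to 52.1).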

How the results depend on the processing

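No coregulator passed in any of the 19 alternatives, and between 0 and 2 of the 9 had an unadjusted p below 0.05 in them (2 without Thrb hep-/- mouse 1). The count over all genes was 885 with DESeq2 (499 as reported) and 10 when the acute-phase component was held constant. It was between 222 and 665 when a mouse was left out, 227 without wild-type mouse 2, 239 without wild-type mouse 5 and 222 without Thrb hep-/- mouse 3. Among other corepressors 1 gene, Rbbp4, passed with DESeq2, and 0 to 1 when a mouse was left out (1 without Thrb hep-/- mouse 1). Among Mediator genes 0 passed with the acute-phase component. The median log2 fold change of the corepressor genes was between -0.067 and 0.056 when a mouse was left out (-0.050 without wild-type mouse 2). Signs changed with the acute-phase component for Ncor1 (-0.096), Hdac3 (0.089), Tbl1xr1 (0.015), Gps2 (-0.28) and Ncoa3 (-0.0095). Gps2 was also below 0 without the filter (-0.0013) and with the clock component (-0.019). With a mouse left out, Gps2 was between -0.067 and 0.085 (-0.021 and -0.050 without wild-type mice 1 and 2, -0.067 and -0.041 without Thrb hep-/- mice 1 and 4), Ncor1 between -0.00030 and 0.13, and Ncoa3 between -0.015 and 0.073 (-0.015 and -0.0063 without Thrb hep-/- mice 3 and 4). With that component Thrb was at -0.35 and did not pass. For all of these the cause was not tested. The principal transcript length, chosen after seeing the data, moved the corepressor to coactivator ratio to 2.39 and 2.58.

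With the replicate block 348 genes passed, 0 of the 9 coregulators among them. Same-numbered mice share only a number, and the block changed the count of calls neither in the 9 coregulators nor in the other corepressors, other coactivators, other Mediator genes and NCOR1 partner factors. With 5 mice per genotype, differences of the coregulators within their 95% intervals cannot be resolved.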
